A study of Homo sapiens with 9 samples.

Results

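The 10 human genes LMNA, LMNB1, LMNB2, EMD, LBR, TMPO, SUN1, SUN2, SYNE1 and SYNE2 encode the nuclear lamina, emerin and other inner nuclear membrane proteins, and the LINC complex. They were followed over every probe set annotated to them, which gave 30 of the 54613 probe sets on the array and 10 of the 19775 genes with a probe set of their own. One further probe set carried the symbols of both GET4 and SUN1 and was not assigned to a gene. The rule used the gene symbols and no measured value, although the genes were chosen with earlier results of these data known.

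The lamins are intermediate filament proteins that form a meshwork under the inner nuclear membrane, to which emerin, the lamin B receptor and LAP2 proteins tie chromatin. SUN proteins cross the inner nuclear membrane and nesprins cross the outer one, and together they form the linker of nucleoskeleton and cytoskeleton, or LINC complex. The giant nesprins bind cytoplasmic actin filaments, and emerin binds and caps actin, so that this group of proteins joins the nucleus to actin on both faces of the envelope.

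The study asked how actin inside the nucleus regulates gene expression in HaCaT cells, an immortalised line of human epidermal keratinocytes. Parental HaCaT cells carried no construct, WT-actin cells stably expressed β-actin fused to GFP, and NLS-actin cells expressed the same fusion with a nuclear localization sequence. Both expressing lines were transfected, selected with G418 and grown as a GFP-positive population, and each construct was represented by 1 such line, so that construct and line cannot be told apart. Total RNA was hybridised to 9 Affymetrix U133 Plus 2.0 arrays, 3 per line, and nothing states that the 3 replicates of a line came from separate cultures, so that p-values measure the spread between these arrays, which may be technical.

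All arrays had the profile of keratinocytes. The basal keratins KRT5 and KRT14 gave signals of 6373 to 12753 and 7816 to 13829, and 7 measured keratinocyte markers of 9 listed summed to between 39454 and 66025. Summed signals of 4 immune markers lay between 22.0 and 73.5, of 5 endothelial markers between 30.5 and 231, of 7 muscle markers between 289 and 543 and of 7 fibroblast markers between 314 and 1199. The 4 melanocyte markers summed to between 1743 and 2755, of which MITF gave 1695 to 2700, while the defining genes PMEL, MLANA and TYRP1 stayed at or below 74.7. The median signal of an array was 29.7 to 43.3. The log2 ratio of the 3' to the 5' ACTB control probe set, a measure of RNA integrity and labelling, ranged from 1.93 to 3.90. The same ratio of GAPDH ranged from 0.47 to 1.62, with WT-actin 1 highest and all other arrays at or below 0.96. Of the lines 2 express a β-actin construct, whose part in the ACTB ratio was not tested. Parental 2, WT-actin 1 and NLS-actin 2 deviated together from their lines. The axis along which they did so held 57.9% of the variance within lines among genes above the median level.

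SYNE2 was the member whose signal differed between the 2 actin lines. It encodes nesprin-2, a giant spectrin-repeat protein whose longest forms bind actin with an N-terminal calponin homology domain and whose KASH domain is held by SUN proteins. The RefSeq annotation of GRCh38.p14 places starts of SYNE2 in 3 windows of 300 bases, each running from 250 bases before a start to 50 after it, which are shown because this gene carried the main difference. They lie on the plus strand of chromosome 14 and are given 5′ to 3′, with capitals marking a GC box, GGGCGG on either strand, none of which overlap.
chr14:63852754-63853053: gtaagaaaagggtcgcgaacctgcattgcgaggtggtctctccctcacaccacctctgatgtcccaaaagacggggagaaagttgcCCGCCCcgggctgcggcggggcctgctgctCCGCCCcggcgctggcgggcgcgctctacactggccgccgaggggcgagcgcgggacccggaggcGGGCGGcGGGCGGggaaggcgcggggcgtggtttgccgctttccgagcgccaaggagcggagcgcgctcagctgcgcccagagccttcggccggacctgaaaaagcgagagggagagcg
chr14:64213894-64214193: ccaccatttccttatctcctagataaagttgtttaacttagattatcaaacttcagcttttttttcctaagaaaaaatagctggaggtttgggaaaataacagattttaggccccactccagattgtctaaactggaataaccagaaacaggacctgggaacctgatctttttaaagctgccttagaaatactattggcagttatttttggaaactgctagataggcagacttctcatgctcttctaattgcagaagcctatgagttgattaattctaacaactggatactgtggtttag
chr14:64215704-64216003: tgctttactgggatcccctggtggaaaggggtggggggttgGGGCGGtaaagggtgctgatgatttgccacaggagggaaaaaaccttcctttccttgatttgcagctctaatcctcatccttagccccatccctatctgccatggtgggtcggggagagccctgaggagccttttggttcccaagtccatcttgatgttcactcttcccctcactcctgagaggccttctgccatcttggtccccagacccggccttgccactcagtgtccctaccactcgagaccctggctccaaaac
The first window held 4 GC boxes at a GC content of 71.7%, the next none at 36.7% and the last 1 at 56.3%. None held a CArG box, the element bound by serum response factor (SRF), whose coactivators bind actin. Signals were not assigned to any of the 3 starts. Over the 9 members with windows in the table, 14 of 20 windows held a GC box against 45.0% of all 35116 windows, and the 8 genes with one were EMD, LMNA, LMNB1, LMNB2, SUN2, SYNE1, SYNE2 and TMPO. A CCAAT box on either strand was present in 8 of the 20 windows against 34.6% of all windows, and TATAAA in 1, at SYNE1, against 11.5%. A CArG box was found in 0 of the 20 windows against 1.29% of all. These matches describe the letters of the windows and were not tested for binding.

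The brightest SYNE2 probe set, 202761_s_at, gave MAS5 signals of 1134, 1277 and 1148 in parental cells, 708, 659 and 433 in WT-actin cells, and 1188, 1609 and 1266 in NLS-actin cells. Every WT-actin array lay below every parental and every NLS-actin array, whereas the parental and NLS-actin arrays overlapped. SYNE2 was the 1 member of 10 without overlap between WT-actin and parental cells, against 12.3% of all genes, and with SYNE1 1 of 2 between the actin lines, against 13.9%. Means were 1186 ± 79.0 (SD, n = 3) in parental, 600 ± 146 (SD, n = 3) in WT-actin and 1354 ± 224 (SD, n = 3) in NLS-actin cells.

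NLS-actin cells therefore had a 2.29-fold higher SYNE2 signal than WT-actin cells, a log2 fold change of 1.19 with a standard error of 0.21 and a 95% interval of 0.74 to 1.65 (adjusted p = 0.0205 from limma with Benjamini-Hochberg adjustment over all genes). It was 1 of 10 members called in this comparison, against 0.728% of all genes, 0.389% in this direction. WT-actin cells differed from parental cells by -1.01 with a standard error of 0.21 (adjusted p = 0.13 from limma), and 0 of 10 members were called there, against 0.167% of all genes. NLS-actin cells differed from parental cells by 0.18, with an interval of -0.27 to 0.63 (adjusted p = 0.912 from limma), and 0 of 10 members were called, against 0.131%. At an unadjusted p under 0.05 by limma 1, 2 and 0 members were counted in these comparisons, against 9.47%, 6.69% and 6.44% of all genes. By this brightest probe set WT-actin cells had the lowest level, then parental and then NLS-actin cells. Parental and NLS-actin cells did not differ beyond the spread between arrays. The comparisons with NLS-actin and with parental cells share the 3 WT-actin arrays, in which the low values lie.

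**Figure D1:**
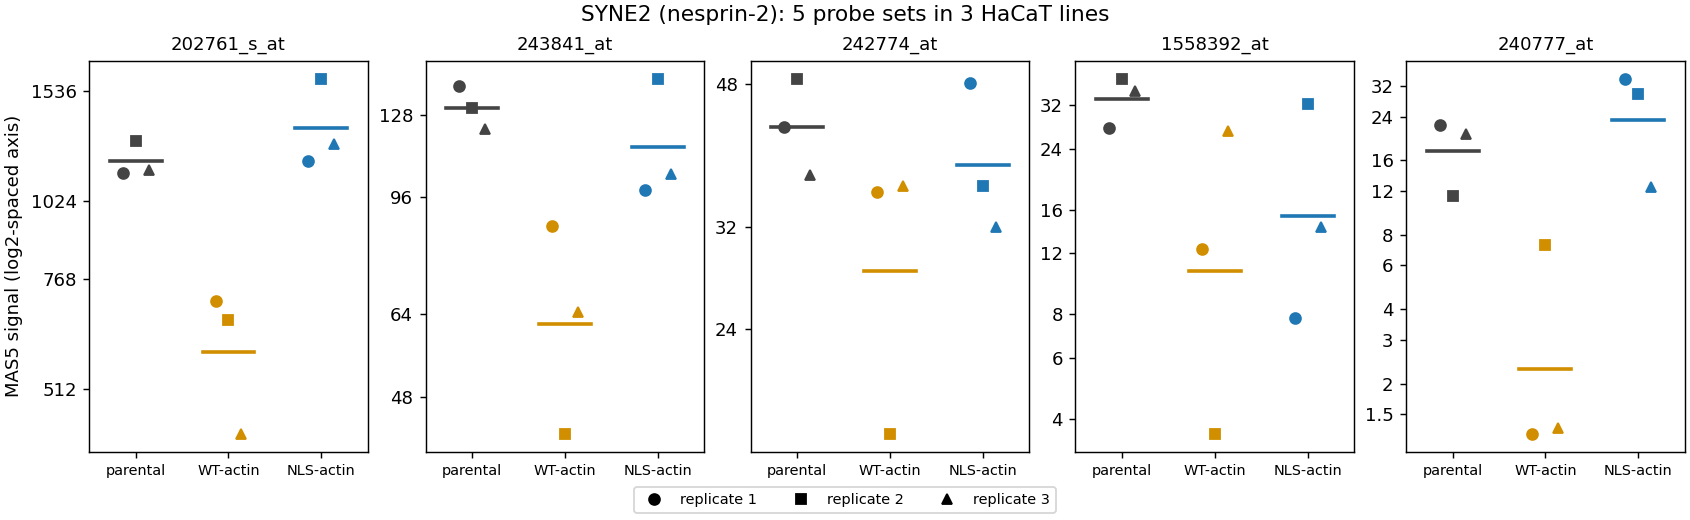
MAS5 signal, on a log2-spaced axis whose range differs between panels, of the 5 SYNE2 probe sets in parental, WT-actin and NLS-actin cells. Points are single arrays, their shape gives the replicate number and bars are geometric means of 3 arrays; in every panel the 3 WT-actin points lie below the 3 parental points, and in 202761_s_at they lie between 433 and 708.

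The adjusted p of SYNE2 between the actin lines ranged from 0.00255 to 0.439 over 22 alternative settings and was under 0.05 in 12 of them, with a log2 fold change of 0.89 to 1.33. With the replicate number as a block among the parental and NLS-actin arrays it was 1.07 (adjusted p = 0.154 from limma). That fit set the fitted level of replicate 1 in NLS-actin cells against the mean of the WT-actin arrays. The lost call there therefore does not show an effect of pairing. Among the members SYNE2 also had the steepest slope along the axis within lines (0.53), and without the 3 arrays that deviated together the difference between the actin lines was 1.20 (adjusted p = 0.0319 from limma). The call was lost without NLS-actin 1, NLS-actin 2, NLS-actin 3 or WT-actin 2, at adjusted p-values from limma of 0.0569, 0.0622, 0.0712 and 0.0613, each with a log2 fold change of 1.06 to 1.28. With the ACTB 3' to 5' ratio as a covariate, SYNE2 also passed between WT-actin and parental cells, at -1.09 (adjusted p = 0.00576 from limma). With the GAPDH ratio in its place, a setting added after seeing the data, it did not pass there, at -1.13 (adjusted p = 0.146 from limma), and it passed between the actin lines at 1.22 (adjusted p = 0.0194 from limma).

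The further 4 SYNE2 probe sets were dimmer. Probe set 243841_at gave 141, 131 and 122 in parental, 86.9, 42.2 and 64.4 in WT-actin and 98.5, 145 and 104 in NLS-actin cells. Its WT-actin arrays lay below all others, with log2 fold changes of -1.08 for WT-actin against parental cells (adjusted p = 0.613 from limma, here over every probe set) and 0.89 between the actin lines (adjusted p = 0.494 from limma). Probe set 240777_at gave 22.3, 11.5 and 20.5 in parental, 1.25, 7.27 and 1.32 in WT-actin and 34.2, 29.7 and 12.4 in NLS-actin cells. Its fitted differences of -2.92 for WT-actin against parental cells and 3.34 between the actin lines shrank to -1.22 and 1.53 when 8.08, the 25th percentile of all signals, was added before log2. Probe sets 242774_at and 1558392_at had differences of -0.59 and -1.65 for WT-actin against parental cells and of 0.43 and 0.53 between the actin lines. For NLS-actin against parental cells the sign varied, and none was called. Probe sets 243841_at, 242774_at and 1558392_at were at -0.20, -0.16 and -1.12 there, and 240777_at at 0.42.

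All 5 SYNE2 probe sets thus had 3 WT-actin arrays below all 3 parental arrays, and they were the only 5 of the 30 member probe sets whose arrays did not overlap in that comparison, against 12.3% of all probe sets. NLS-actin arrays lay entirely above WT-actin arrays in 3 of the 5, and 5 of the 30 member probe sets had arrays that did not overlap between those lines, against 12.1% of all. Probe sets of 1 gene share its transcripts and are not independent. The log2 difference of each further probe set from the brightest one of its gene was tested over all genes with several probe sets, and 0 of 20 such differences of the members passed in any comparison by limma, against 0%, 0% and 0.0141% of all, with 0, 1 and 2 at an unadjusted p under 0.05 in NLS-actin against parental, WT-actin against parental and NLS-actin against WT-actin cells. The backgrounds of those unadjusted counts were 5.63%, 4.88% and 5.45%, and the 2 in the last comparison were SYNE2 240777_at and SYNE1 215350_at.

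The study's methods name a p of 0.05 and more than 2-fold as thresholds and mention no adjustment, and the unadjusted p was used here. By these, 0 of 30 member probe sets passed in NLS-actin against parental cells, where 3.6% of all probe sets did. In WT-actin against parental cells 3 of 30 passed, against 3.2% of all, and these were the SYNE2 probe sets 202761_s_at, 243841_at and 240777_at, all lower in WT-actin cells, as were 2.33% of all probe sets. In NLS-actin against WT-actin cells 3 of 30 passed, against 4.67%, of which SYNE2 202761_s_at and 240777_at were higher and SYNE1 215350_at was lower in NLS-actin cells, beside 2.67% higher and 2% lower over all. With adjustment over all probe sets 202761_s_at alone of the 30 passed, in the last comparison (adjusted p = 0.0249 from limma), against 0.364% of all, and 0 passed in NLS-actin or WT-actin against parental cells, where 0.0769% and 0.103% of all did. At an unadjusted p under 0.05 by limma 0 of 30 were counted in NLS-actin against parental, 4 in WT-actin against parental and 4 in NLS-actin against WT-actin cells, against 6.36%, 5.98% and 7.85% of all.

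SYNE1 encodes nesprin-1, the second giant nesprin. All 5 of its probe sets lay at or below the median level of the array. The brightest, 209447_at, gave 45.2, 45.3 and 23.3 in parental, 23.9, 31.3 and 16.4 in WT-actin and 34.8, 35.2 and 36.5 in NLS-actin cells. NLS-actin arrays lay above all WT-actin arrays, and parental arrays spanned both, with a log2 fold change of 0.62 ± 0.49 (SE) between the actin lines (adjusted p = 0.795 from limma). Its pooled SD over lines was 0.42 on the log2 scale, the widest of the members, and its interval between the actin lines ran from -0.44 to 1.68. Probe set 215350_at, which passed the thresholds of the methods, read 3.87, 0.51 and 1.25 in parental, 12.2, 0.414 and 5.37 in WT-actin and 0.285, 0.717 and 0.0838 in NLS-actin cells. These signals are near 0 and overlap between lines, and the fitted log2 fold change of -3.54 between the actin lines became -0.65 with the offset. In each comparison the 95% interval of 209447_at included 0 and reached past 2-fold on at least 1 side. For NLS-actin against parental cells it did so on both sides, from -1.09 to 1.03. For WT-actin against parental cells, from -1.71 to 0.40, a 2-fold fall was not bounded. Between the actin lines a 2-fold rise was not bounded.

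**Figure D2:**
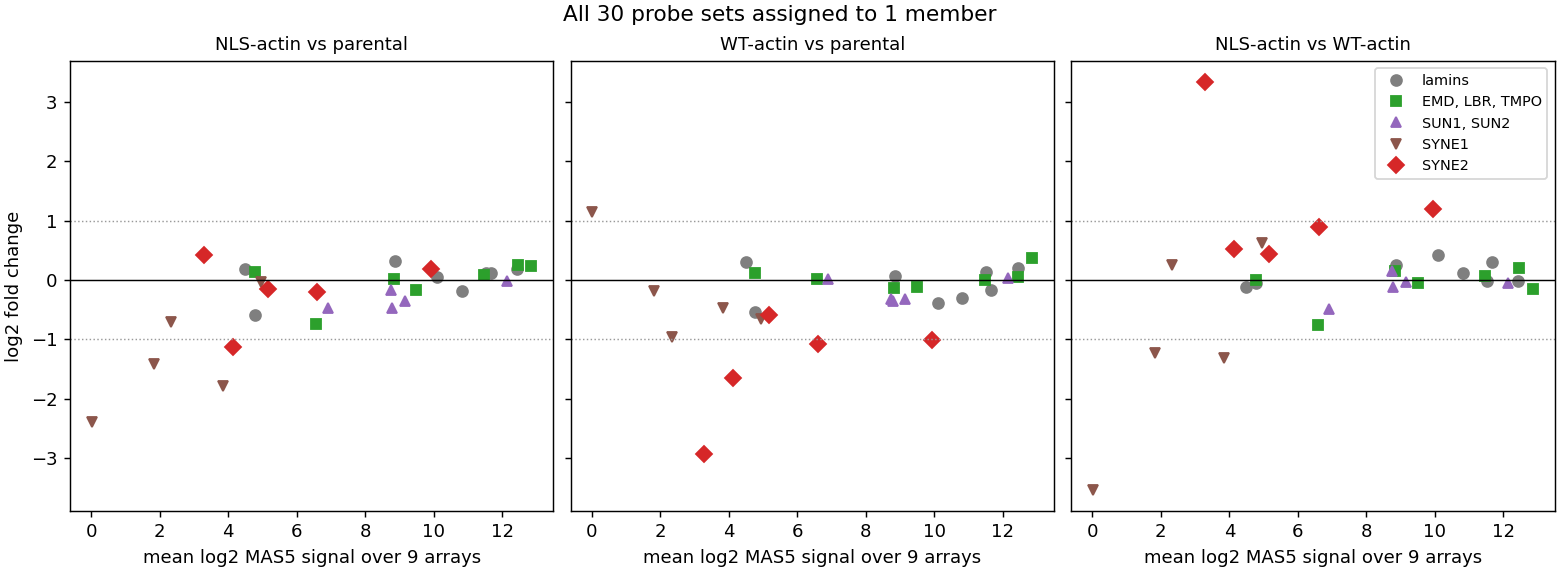
Log2 fold change of each of the 30 member probe sets against its mean log2 MAS5 signal over 9 arrays, in the 3 comparisons, coloured by gene group; dotted lines mark a 2-fold difference. SYNE2 202761_s_at lies at -1.01 for WT-actin against parental cells and 1.19 between the actin lines, the dimmer SYNE2 243841_at at -1.08 and 0.89, and the widest scatter, from -3.54 to 3.34, belongs to dim probe sets of SYNE1 and SYNE2.

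SUN1 and SUN2, the inner membrane partners of the nesprins, were both detected. SUN2, with 1 probe set, gave 592, 609 and 422 in parental, 350, 483 and 428 in WT-actin and 407, 454 and 307 in NLS-actin cells. Parental 1 and 2 lay above all other arrays and parental 3 among them. The log2 fold changes were -0.47 ± 0.23 (SE) for NLS-actin (adjusted p = 0.804 from limma) and -0.36 ± 0.23 for WT-actin (adjusted p = 0.811 from limma) against the shared parental arrays, and -0.12 between the actin lines. Same-numbered parental and NLS-actin arrays had deviations from their lines that correlated positively, and they were taken as paired from these data. No label states a pairing, and parental 1 correlated more with NLS-actin 3 and parental 3 more with NLS-actin 1. Paired in this way, SUN2 was lower in NLS-actin cells in each of the 3 pairs, by log2 differences of -0.54, -0.42 and -0.46. With the pairs as a block its log2 fold change was -0.47 ± 0.20 (SE), with an unadjusted p of 0.0356 (adjusted p = 0.60 from limma). LMNA, LMNB1, LBR, TMPO and SYNE2 were higher in NLS-actin cells in all 3 pairs, so that 6 of 10 members kept 1 direction, against 35.6% of all genes, and 0 of 10 were called with the block. The pair differences, this count and the block fit all depend on the match chosen. In the match that correlated more, SUN2 read 592 in parental 1 against 307 in NLS-actin 3. There parental 3 at 422 stood against NLS-actin 1 at 407, so that the differences were uneven. SUN1 probe set 212074_at gave 5083, 4203 and 4285 in parental, 4844, 4784 and 4172 in WT-actin and 4879, 4158 and 4293 in NLS-actin cells. This was the member with the narrowest spread, a pooled SD of 0.13 on the log2 scale, and its lines lay within 0.05 of each other, with intervals of -0.32 to 0.27 for NLS-actin and -0.27 to 0.32 for WT-actin against parental cells.

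The further SUN1 probe sets did not all follow it. In 214169_at parental cells gave 837, 572 and 618, WT-actin cells 472, 523 and 610 and NLS-actin cells 500, 531 and 526, and in 230210_at parental cells gave 103, 140 and 163, WT-actin cells 125, 130 and 151 and NLS-actin cells 101, 88.8 and 99.3. In both, all NLS-actin arrays lay below all parental arrays, with log2 fold changes of -0.36 (adjusted p = 0.838 from limma) and -0.47 (adjusted p = 0.848 from limma). In 230210_at they also lay below all WT-actin arrays. With the LMNA probe sets 212089_at and 212086_x_at, in which NLS-actin arrays lay above parental arrays, they made 4 of 30 member probe sets without overlap in that comparison, against 13.2% of all.

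The lamin genes differed little between lines. LMNA encodes the A-type lamins A and C. Its brightest probe set, 212089_at, gave 4416, 5443 and 5452 in parental, 5276, 6431 and 5794 in WT-actin and 5479, 6047 and 5774 in NLS-actin cells. All NLS-actin arrays lay above all parental arrays by a small margin, and LMNA was the 1 member of 10 without overlap in that comparison, against 13.9% of all genes. The log2 fold changes were 0.18 ± 0.13 (SE) for NLS-actin (adjusted p = 0.86 from limma) and 0.20 ± 0.13 for WT-actin (adjusted p = 0.826 from limma) against parental cells.

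LMNA had 5 further probe sets, with signals of 14.1 to 3811. Of these 203411_s_at gave 2729, 3491 and 3747 in parental, 2442, 3052 and 3353 in WT-actin and 3735, 3243 and 3811 in NLS-actin cells, with log2 fold changes of 0.12 for NLS-actin and -0.17 for WT-actin against parental cells. The sign for WT-actin cells thus differed between the 2 brightest LMNA probe sets. The log2 ratio of 203411_s_at to 212089_at differed by -0.37 between WT-actin and parental cells (adjusted p = 0.92 from limma).

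LMNB1 and LMNB2 encode the B-type lamins, which stay attached to the membrane by farnesylation. LMNB1 gave 2689, 2509 and 3133 in parental, 2947, 3798 and 2528 in WT-actin and 3085, 2550 and 3414 in NLS-actin cells. LMNB2 gave 1809, 2136 and 2142 in parental, 1289, 1841 and 1862 in WT-actin and 2022, 1643 and 1686 in NLS-actin cells. The arrays of the lines overlapped for both genes. Log2 fold changes against parental cells were 0.12 for LMNB1 and -0.19 for LMNB2 in NLS-actin cells, and 0.14 and -0.30 in WT-actin cells, with adjusted p-values from limma of 0.786 or more.

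**Figure D3:**
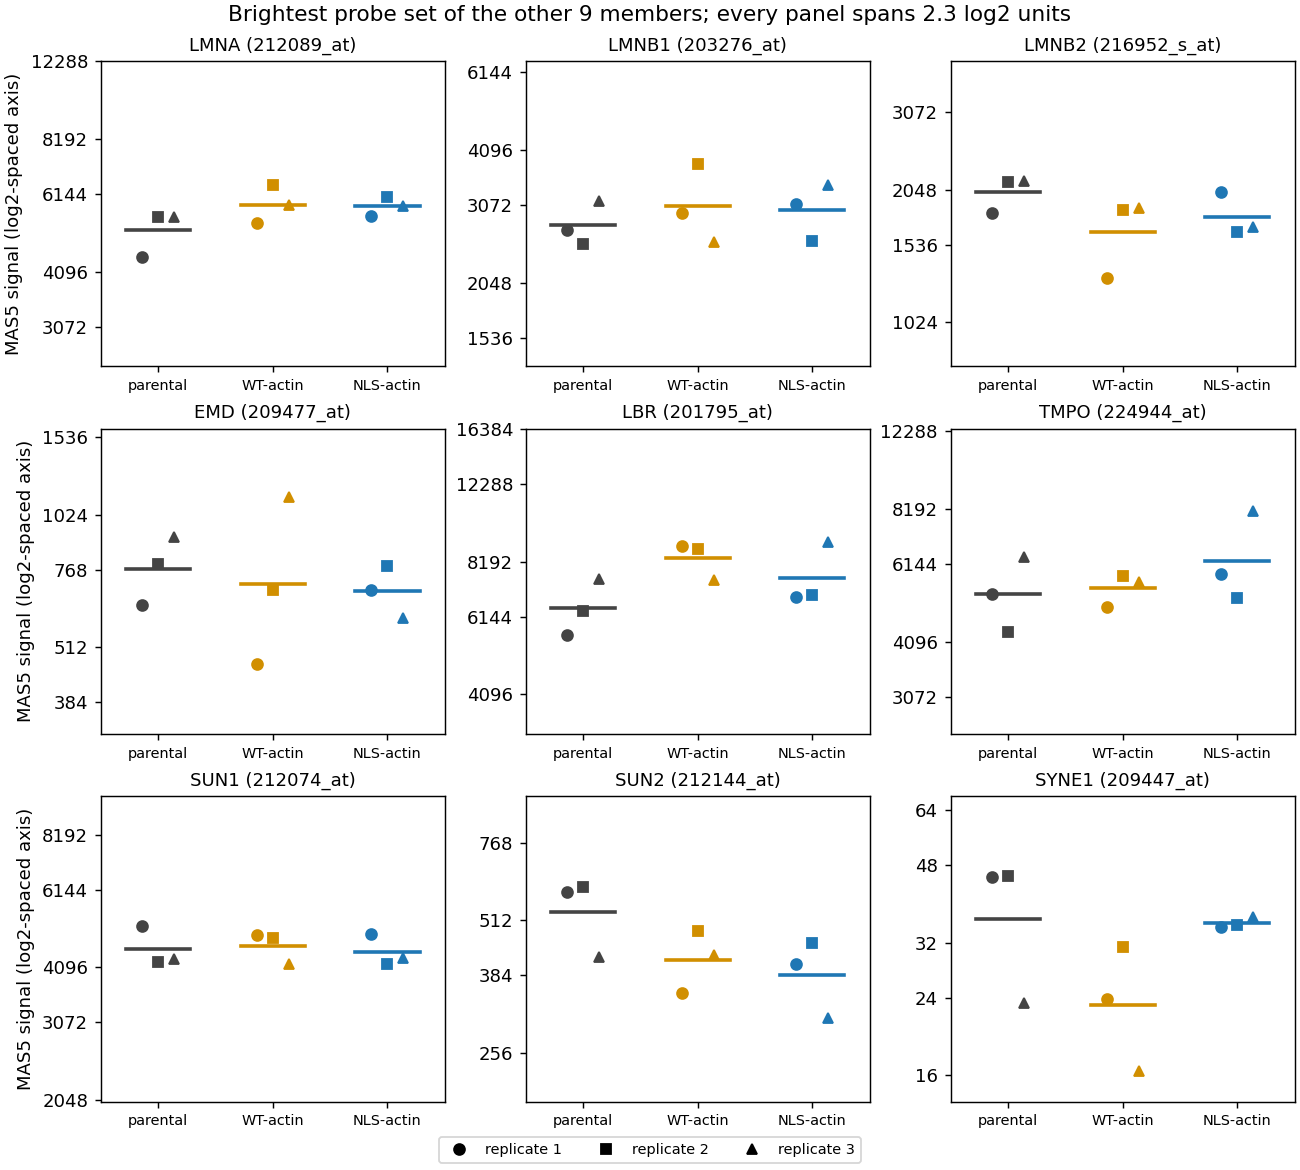
MAS5 signal of the brightest probe set of the other 9 members in each array, on log2-spaced axes that all span 2.3 log2 units. Points are arrays with their shape giving the replicate number and bars are geometric means of 3 arrays; the lines overlap in most panels, except that NLS-actin points lie above parental points for LMNA and above WT-actin points for SYNE1.

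No difference between lines passed the threshold for the inner nuclear membrane proteins EMD, LBR and TMPO. EMD encodes emerin, the LEM-domain protein lost in X-linked Emery-Dreifuss muscular dystrophy. It gave 639, 791 and 910 in parental, 469, 690 and 1120 in WT-actin and 692, 783 and 597 in NLS-actin cells. WT-actin cells held both the lowest and the highest EMD signal, and the pooled SD of 0.41 on the log2 scale left intervals of -0.78 to 0.44 for NLS-actin and -0.72 to 0.50 for WT-actin against parental cells.

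LBR encodes the lamin B receptor, which binds B-type lamins and heterochromatin and also acts as a sterol reductase. It gave 5601, 6343 and 7491 in parental, 8877, 8772 and 7461 in WT-actin and 6804, 6898 and 9103 in NLS-actin cells. Of the WT-actin arrays 2 lay above all parental arrays and the remaining one just under the highest, for a log2 fold change of 0.38 ± 0.16 (SE), with an unadjusted p of 0.0332 (adjusted p = 0.694 from limma). LBR and SYNE2 were the 2 members counted at an unadjusted p under 0.05 in that comparison. For NLS-actin against parental cells LBR gave 0.23 (adjusted p = 0.852 from limma).

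TMPO encodes the LAP2 proteins, which bind lamins and the chromatin factor BAF. Probe set 224944_at gave 5259, 4302 and 6387 in parental, 4902, 5787 and 5585 in WT-actin and 5829, 5135 and 8098 in NLS-actin cells, and the arrays of all lines overlapped. Log2 fold changes were 0.25 for NLS-actin and 0.04 for WT-actin against parental cells, and the 4 further probe sets had signals of 16.1 to 3368 with no called difference.

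**Figure D4:**
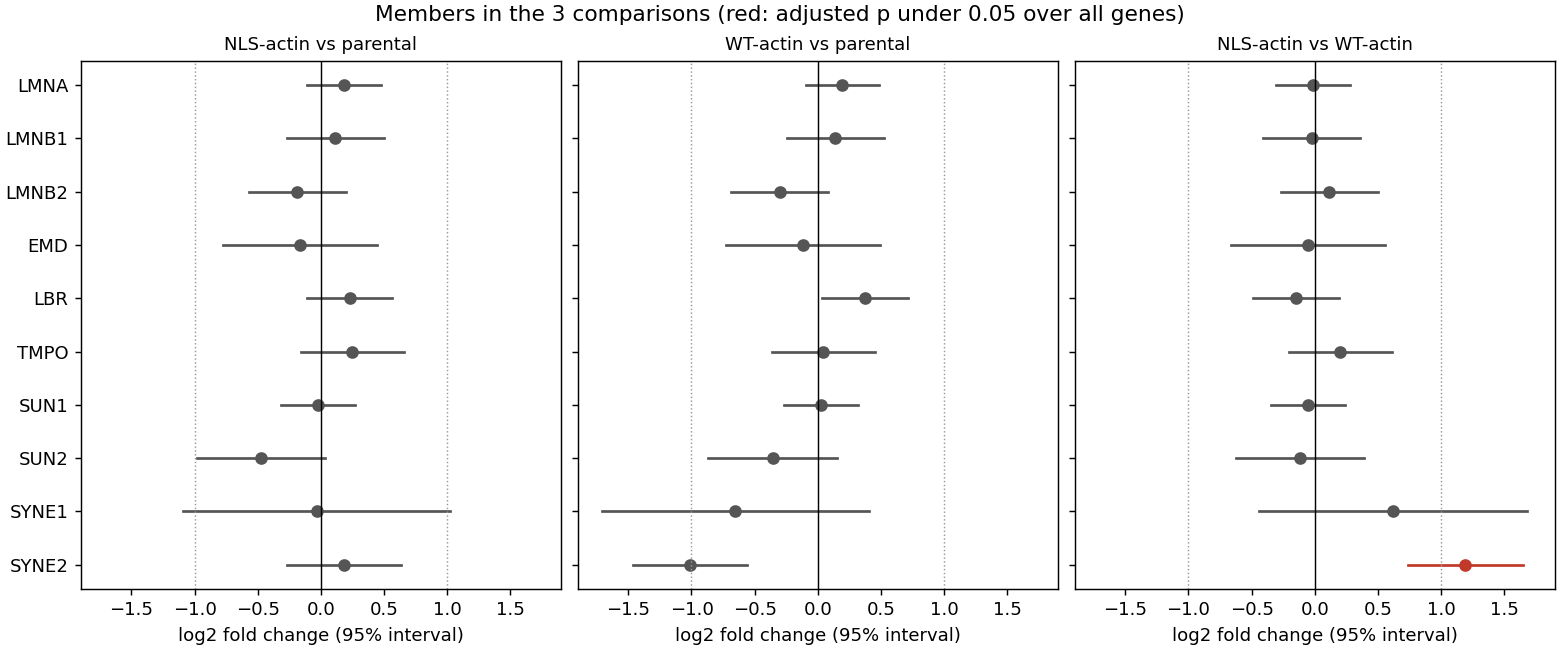
Log2 fold change with its 95% interval for the brightest probe set of each member, in the 3 comparisons; dotted lines mark 2-fold and red marks an adjusted p under 0.05 over all genes. SYNE2 is red in NLS-actin against WT-actin cells, at 1.19, and the intervals of the other members include 0 except LBR in WT-actin against parental cells, while the SYNE2 interval there, from -1.47 to -0.56, does not reach 0 either.

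The 8 members other than the nesprins had log2 fold changes between -0.47 and 0.25 for NLS-actin against parental, between -0.36 and 0.38 for WT-actin against parental, and between -0.15 and 0.20 when the actin lines were compared. Their 95% intervals all lay within 2-fold either way in each comparison. Including SYNE2, 9 members did so for NLS-actin against parental cells. The median of the 10 members was 0.05, -0.04 and -0.02 in the 3 comparisons, beside -0.01, -0.06 and 0.03 over all genes, and 5, 5 and 4 members lay above 0, against 49.4%, 43.7% and 53.4% of all genes. The median size of the difference was 0.18, 0.25 and 0.11 in the members and 0.27, 0.28 and 0.30 over all genes. Of the 10 members 9 had a probe set above the median level, while all genes include dim ones. These sizes were not matched for signal level and do not show that the members were steadier than other genes. Under quantile normalization the sign turned for EMD, SUN1 and TMPO in WT-actin against parental cells, for SYNE1 in NLS-actin against parental cells and for LMNA between the actin lines, all of them uncalled.

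Other genes of the nuclear envelope and of its pathways were read from 8 lists, of which 103 of 106 genes were measured. By limma with Benjamini-Hochberg adjustment over all genes 0 of the 103 passed in NLS-actin against parental, in WT-actin against parental or between the actin lines, where 0.131%, 0.167% and 0.728% of all genes did. At an unadjusted p under 0.05 by limma 5, 4 and 4 of them were counted, against 6.44%, 6.69% and 9.47% of all genes. Among 12 inner nuclear membrane and LEM-domain partners, medians were 0.11 for NLS-actin and -0.01 for WT-actin against parental cells, and -0.03 between the actin lines. NEMP1, an inner membrane protein, had mean signals of 3637 in parental, 4543 in WT-actin and 5304 in NLS-actin cells. Its log2 fold change for NLS-actin against parental cells was 0.54 (adjusted p = 0.252 from limma), and that of LEMD3, which binds SMAD proteins, was 0.21.

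The 14 other LINC components and cytoskeletal partners had medians of 0.10, 0.17 and -0.03 in the same order of comparisons. TOR1A, the luminal ATPase torsin A, gave 0.19 for NLS-actin against parental cells, and SUN5, a testis SUN protein, was dim at mean signals of 7.60 to 15.0. The 7 genes of lamin processing had medians of -0.13, -0.02 and -0.03, with FNTA, a farnesyltransferase subunit, at 0.15 and the dim IFFO1 at -0.68 for NLS-actin against parental cells. Medians of 9 chromatin and lamin partners were 0.02, -0.07 and 0.01.

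Within the last list CBX5, which encodes heterochromatin protein HP1α, a ligand of LBR, had mean signals of 2024 in parental, 1525 in WT-actin and 2733 in NLS-actin cells. As for the brightest SYNE2 probe set, WT-actin cells were lowest and NLS-actin cells highest. The CBX5 log2 fold change between the actin lines was 0.83 (adjusted p = 0.0863 from limma). It passed in that comparison with the ACTB 3' to 5' ratio as a covariate and in no other setting. CBX3, which encodes HP1γ, gave 0.17 for NLS-actin against parental cells.

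The 30 nucleoporins had medians of 0.02, 0.01 and 0.06, of which NUP88 gave 0.41 (adjusted p = 0.525 from limma) and NUP153, a basket nucleoporin that binds lamins, -0.33 for NLS-actin against parental cells. The 5 sterol reductases and related enzymes had medians of 0.01, -0.06 and 0.07, with SC5D at -0.25 and HSD17B7 at 0.06. Among 8 genes of actin transport and the MRTF-SRF pathway medians were 0.00, -0.20 and 0.00. There CFL2, the muscle-type cofilin, was at -0.47 in NLS-actin (adjusted p = 0.576 from limma) and -0.54 in WT-actin cells against parental cells (adjusted p = 0.472 from limma), while MRTFB, an actin-binding coactivator of SRF, was at 0.41 in NLS-actin (adjusted p = 0.652 from limma) and -0.08 in WT-actin cells. The 18 proliferation genes had medians of 0.09, 0.06 and 0.08, with TYMS at 0.40 and CENPF at 0.28 for NLS-actin against parental cells. In bulk RNA, fewer cells that express a gene and less of its RNA per cell cannot be told apart.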

How the data were processed

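The 10 genes, the pathway and marker lists and the settings were chosen with earlier results of these data known. RNA from 9 samples was labelled and hybridised by the authors, who deposited MAS5 signals, linear intensity values scaled to an equal trimmed mean of 500 on each array per the values (2% trimmed at each end). The MAS5 version is not given in the sources used here. The labels name the standard Affymetrix labelling protocol and the paper an Ovation kit. All columns of the table were used.

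Signals were converted to log2 without offset. Of the 54613 probe sets other than the 62 controls, 41091 carried 1 gene symbol, 1801 several and 11721 none in the platform annotation, updated through Entrez identifiers against RefSeq for 41037. Each gene was read from its brightest probe set by mean log2 signal. The 3 lines were fitted together in R 4.3.3 with limma 3.58.1 (1 mean per line, empirical Bayes with an intensity trend), with Benjamini-Hochberg adjustment over 19775 genes, or 54613 probe sets, and a threshold of 0.05. The methods name no test for the arrays, and the fit was tested on simulated data with 200 changed genes. The simulated noise was independent between arrays, so that this test does not cover arrays that deviate together, as those here did. Array intensity has no read depth, and the precision is limited by 3 arrays per line. Named genes were all 10 members with every probe set past the thresholds of the methods and, of each list, called genes or otherwise the 2 with the smallest p in NLS-actin against parental cells.

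Replicate numbers come from the sample titles. Residual correlations between arrays and the axis within lines were computed over genes above the median gene level only. Same-numbered parental and NLS-actin arrays had residual correlations of 0.234, 0.79 and 0.416 and were taken as paired, although parental 1 with NLS-actin 3 (0.336) and parental 3 with NLS-actin 1 (0.534) correlated more. Same-numbered pairs with WT-actin arrays ranged from -0.60 to 0.51 and were not taken as paired. Alternatives were quantile normalization, an offset, a filter on dim probe sets, no intensity trend, 2 forms of the replicate block, fits of 2 lines and a gene's mean over its probe sets. Further ones were Tukey's test, leaving out probe sets named _x_at, _s_at or _a_at, the ACTB or, added after seeing the data, the GAPDH 3' to 5' ratio as a covariate and omission of arrays. Tukey's test, named in the study's statistics, was followed here by Benjamini-Hochberg adjustment. In comparisons with WT-actin cells, the block among parental and NLS-actin arrays set their replicate 1 levels against the WT-actin mean. Promoter windows were read from RefSeq for GRCh38.p14, in which 9 members had 20 windows and SUN1 is named only. Python 3.11.15 with pandas 2.3.3 and matplotlib 3.10.9 drew the figures.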

Additional observations from a re-analysis of the deposited data

Results flagged for a closer look

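SYNE2 differed between the NLS-actin and WT-actin lines by a direct test of that difference. Against the shared parental arrays its log2 fold change was 0.18 in NLS-actin and -1.01 in WT-actin cells, and the direct comparison of NLS-actin with WT-actin cells gave 1.19 (adjusted p = 0.0205 from limma), with all 3 NLS-actin arrays above all 3 WT-actin arrays. Over 22 alternatives the adjusted p ranged from 0.00255 to 0.439, and it was under 0.05 in 12 of them. The call was lost, among others, in fits of 2 lines (adjusted p = 0.0956 from limma) and without any 1 of the NLS-actin arrays (adjusted p = 0.0569 to 0.0712 from limma). It was also lost with the replicate block among parental and NLS-actin arrays (adjusted p = 0.154 from limma). That fit set replicate 1 of NLS-actin cells against the WT-actin mean and does not show an effect of pairing. The ACTB 3' to 5' log2 ratio ranged from 2.80 to 3.68 in NLS-actin arrays and from 1.93 to 3.90 in WT-actin arrays. With that ratio in the fit the difference was 1.09 (adjusted p = 0.00255 from limma), and with the GAPDH ratio 1.22 (adjusted p = 0.0194 from limma). Each construct was 1 stable line, so that construct and line cannot be told apart.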

How the results depend on the processing

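Besides SYNE2 no member was called under any of the 22 alternatives run, of which the GAPDH ratio as a covariate was chosen after seeing the data. The call of SYNE2 in NLS-actin against WT-actin cells was made in 12 of them, and its log2 fold change stayed positive in all. The count of members called there was 0 in place of 1 with fits of 2 lines (adjusted p = 0.0956 from limma), the mean of all probe sets (0.155) and no intensity trend (0.129). It was also 0 with Tukey's test and Benjamini-Hochberg adjustment over all genes (adjusted p = 0.328), where the Tukey p before that adjustment was 0.00351. Without probe sets named _x_at, _s_at or _a_at it was 0, with SYNE2 read from 243841_at (0.89, adjusted p = 0.439 from limma). The replicate block among parental and NLS-actin arrays also gave 0 (1.07, adjusted p = 0.154 from limma), in a fit that set replicate 1 of NLS-actin cells against the WT-actin mean. The count was 0 to 1 with single arrays left out. With the replicate number as a block over all 9 arrays SYNE2 was 1.19 (adjusted p = 0.0157 from limma), and neither block changed another call of a member. The ACTB ratio as a covariate gave 1 called member, SYNE2, in WT-actin against parental cells (-1.09) and 1 called list gene, CBX5, between the actin lines. Over the alternatives the genes called in all ranged from 4 to 64 beside 26, from 8 to 84 beside 33 and from 17 to 307 beside 144. The cause of these differences was not tested.

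Probe sets past the thresholds of the methods numbered 1 in place of 3 with the filter on dim probe sets between the actin lines, and 1 in place of 3 under quantile normalization in WT-actin against parental cells. With single arrays left out they numbered 0 to 1 in NLS-actin against parental cells (1 without NLS-actin 3), 1 to 3 between the actin lines (1 without WT-actin 3) and 2 to 4 in WT-actin against parental cells. The member median for NLS-actin against parental cells was -0.17 in place of 0.05 with the mean of all probe sets.

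Uncalled log2 fold changes turned sign as follows. For NLS-actin against parental cells, EMD was 0.025 and SYNE2 -0.0020 with the ACTB ratio, EMD 0.071 with the GAPDH ratio, SYNE2 -0.17 and TMPO -0.052 with the mean of all probe sets, SYNE2 -0.20 without probe sets named _x_at, _s_at or _a_at, and SYNE1 0.094 under quantile normalization and 0.13 without the 3 deviating arrays. For WT-actin against parental cells, EMD was 0.0028, SUN1 -0.11 and TMPO -0.086 under quantile normalization, EMD 0.21, SUN1 -0.063 and TMPO -0.028 without the 3 deviating arrays, EMD 0.21 and SUN1 -0.023 with the GAPDH ratio, and LMNA -0.087 and SUN1 -0.15 with the mean of all probe sets. Between the actin lines, EMD was 0.058 with the ACTB ratio, LMNA 0.13, SYNE1 -1.04 and TMPO -0.065 with the mean of all probe sets, LMNA 0.017 under quantile normalization, and LMNB1 0.067, LMNB2 -0.0038 and SUN1 0.035 without the 3 deviating arrays. With the block among parental and NLS-actin arrays, EMD was 0.017 and SUN1 -0.13 for WT-actin against parental cells, and SUN1 was 0.11 between the actin lines. That fit set replicate 1 of the other line against the WT-actin mean, so that these turns do not show an effect of pairing. With single arrays left out, values that turned sign ranged for NLS-actin against parental cells from -0.093 to 0.063 (SUN1) and -0.35 to 0.13 (SYNE1), for WT-actin against parental cells from -0.44 to 0.19 (EMD), -0.019 to 0.27 (LMNB1), -0.024 to 0.11 (SUN1) and -0.099 to 0.19 (TMPO), and between the actin lines from -0.36 to 0.27 (EMD), -0.083 to 0.059 (LMNA), -0.16 to 0.13 (LMNB1), -0.060 to 0.21 (LMNB2) and -0.24 to 0.046 (SUN2).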
